A study of Drosophila melanogaster with 12 samples.

Results

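The open chromatin of vehicle-treated Drosophila melanogaster S2 cells was described from 9560 ATAC-seq peaks, every peak of the list that the authors called on the 3 vehicle samples together. The vehicle and insulin lists of the study, merged by the authors, held 10269 peaks, of which 9367 lay under a vehicle peak. S2 is an embryo-derived male cell line with features of hemocytes, the blood cells of insects, and comes from the Oregon-R strain per the labels. All samples used here were serum-starved S2 cells exposed for 4 h to the vehicle, 25 mM HEPES at pH 8.2, and 60000 sorted live (DAPI-negative) cells entered each transposition. The study calls its samples biological replicates, and whether each was a culture of its own is not stated further. Each peak was joined by 1 bp or more of overlap to the merged peak of the deposited annotation, which gives its feature class and a single gene, and through that gene to the raw RNA-seq counts of the 3 vehicle RNA libraries. Because the 3 ATAC-seq samples were pooled in the peak call, the peak values carry no replicate spread. Intervals on shares (Wilson, 95%) and on medians (binomial order statistics, 95%) cover only the number of peaks or genes counted. No insulin value was used, except that the authors' mean normalized read count, given for a few peaks, is an average over all 6 ATAC-seq libraries of the study.

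ATAC-seq uses a transposase that inserts adapters where DNA is not wrapped by nucleosomes or otherwise shielded, so that peaks mark accessible DNA. In Drosophila, accessible DNA is found around the starts of transcribed genes, where nucleosomes are displaced next to the initiating polymerase, and at enhancers in introns and between genes. Housekeeping promoters of the fly often carry the DNA replication-related element (DRE) or Motif 1, which are bound by Dref and by M1BP, whereas the GAGA element, bound by the GAGA factor Trl, is known from developmental and heat shock promoters with paused polymerase.

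Short core promoter and factor motifs were searched on both strands in the central 300 bp of each peak. Promoter sequences that carry some of them are printed here. The DRE and Motif 1 set proximal promoters apart from other peaks most strongly, but most proximal promoter windows held neither. The DRE was searched as TATCGATA and was in 4.00% of proximal promoter windows (3.53 to 4.53), 0.696% of the other peaks' windows and 0.828% of all 440997 windows of the same length in the genome. Motif 1, searched as GGTCACAC, was in 4.91% of proximal promoter windows (4.38 to 5.49), 0.295% of other windows and 0.655% of genome windows. At least 1 of these motifs was in 501 proximal promoter windows, or 8.60%. The GAGA element, as GAGAGAG, was in 10.9% of proximal promoter windows, 10.4% of other windows and 3.62% of genome windows, so that it did not separate promoters from other peaks. The frequent Initiator core TCAGT was in 42.7% of proximal promoter, 41.2% of other and 39.8% of genome windows, and the TATA box TATAAA in 24.6%, 22.9% and 30.0% of the same windows. The sequences are from the Release 6 genome (RefSeq), run 5′ to 3′ on the strand of the gene, and have 1 match of the searched letters or their reverse complement in capitals. The Hsp70Ba sequence has the GAGA element 87 bp upstream of the start of this heat shock gene, on the minus strand at 3R:12467800-12467926, and holds a further match as the reverse complement, left in lower case. The pnr sequence has the DRE 63 bp upstream of an annotated start of this GATA factor gene, on the plus strand at 3R:16025952-16026078, and the Hers sequence has Motif 1 as its reverse complement 31 bp upstream of an annotated start, on the plus strand at X:19892047-19892141. The Pdk1 sequence, from the gene of a kinase that activates Akt, has the TATA letters 97 bp downstream of an annotated start, on the plus strand at 3L:132810-132892. The sequence from the peak credited to Reg-2 holds the Initiator letters as their reverse complement, on the minus strand at 3L:611462-611586, and the annotated start nearest to them, 1904 bp away, is that of another gene under the same peak. The kay sequence, from the fly Fos gene, holds the FOXO motif GTAAACA 3033 bp downstream of the nearest start, on the plus strand at 3R:29768965-29769091. A match is a description of the letters and not evidence of a bound site.
Hsp70Ba GAGA: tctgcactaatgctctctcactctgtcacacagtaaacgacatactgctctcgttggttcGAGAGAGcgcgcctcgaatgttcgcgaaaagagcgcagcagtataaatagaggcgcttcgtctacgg
pnr DRE: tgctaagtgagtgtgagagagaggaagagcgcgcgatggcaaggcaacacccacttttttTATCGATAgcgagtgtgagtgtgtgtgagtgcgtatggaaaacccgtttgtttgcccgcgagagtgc
Hers Motif 1: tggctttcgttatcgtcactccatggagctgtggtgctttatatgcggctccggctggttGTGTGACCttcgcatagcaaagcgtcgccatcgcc
Pdk1 TATA: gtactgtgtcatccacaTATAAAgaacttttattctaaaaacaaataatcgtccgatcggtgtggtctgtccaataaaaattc
Reg-2 Initiator: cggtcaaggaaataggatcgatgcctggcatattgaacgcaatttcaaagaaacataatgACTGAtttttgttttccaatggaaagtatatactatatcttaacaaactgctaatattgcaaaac
kay FOXO: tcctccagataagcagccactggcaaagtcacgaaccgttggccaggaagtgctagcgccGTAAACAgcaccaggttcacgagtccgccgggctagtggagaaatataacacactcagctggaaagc

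The genes of these promoters differed widely in RNA. The Hsp70Ba promoter peak scored 2214 and the gene had 13, 11 and 9 counts in the 3 vehicle RNA libraries. The pnr peak scored 1116, with 2942, 2587 and 3405 counts, and the Hers peak scored 1350, with 2145, 1703 and 2400 counts. The Pdk1 and Reg-2 peaks scored 2837 and 3708. The kay peak scored 2566, and kay had 10216, 8981 and 12041 counts. Thus the Hsp70Ba peak was high over a gene with few counts in each of the 3 libraries, whereas kay was high in both measures. Of the Hsp70Ba peak 33.8% lay over a Dm88 element, and the near-identical copy Hsp70Bb had 121, 118 and 161 counts, so that the split of reads between copies is uncertain. The pnr and Hers sequences were chosen as examples after their values had been seen.

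The level of each peak is given by the score that the authors' pipeline wrote, whose scale is not stated in the sources used here and which was therefore used only for ranks, medians and ratios. Scores started at 20, had quartiles of 69 and 279 around a median of 130 (127 to 133), and reached 594 at the 90th, 1041 at the 95th and 3220 at the 99th percentile. The highest score was 791955, so that a handful of peaks stood far from all others. The 2 highest peaks held 26.0% of the summed score and the 10 highest held 42.1%. Widths started at 300 bp, had quartiles of 440 and 1210 bp around a median of 680 bp (670 to 700) and reached 3470.5 bp at the 95th percentile, and together the peaks covered 10.7 Mb, or 7.76% of the chromosomes. The lowest width equals the peak size of 300 bp that the authors set for peak calling. A gap size was also set, on which the split of open stretches into separate peaks depends. Score and width were related across the 9560 peaks (Spearman's rho = 0.640), as were score and the authors' mean normalized read count (rho = 0.716), while the mean read count followed width more closely (rho = 0.902). These rank correlations are across peaks of 1 pooled list, which share the same reads, and peaks are not independent replicates.

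**Figure D1:**
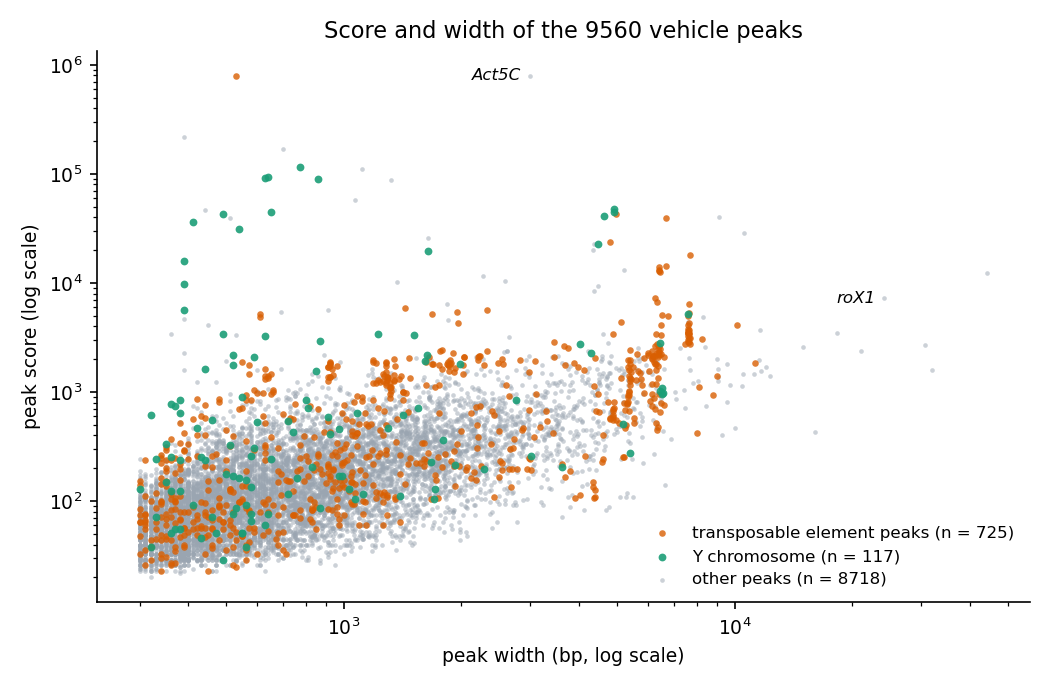
Score (log axis) against width in bp (log axis) for the 9560 vehicle peaks, with 1 point per peak. Peaks at least 50% covered by annotated transposable elements (off Y), all peaks on Y and the remaining peaks have their own colours, and the Act5C (791955) and roX1 (7273) peaks are marked; the highest scores were a few narrow peaks, whereas the widest peaks had lower scores.

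Most peaks lay at promoters. The annotation placed 5826 peaks, or 60.9%, in proximal promoters, within 1 kb of a transcription start site, and 3734 elsewhere. Proximal promoter peaks had a median score of 139 (134 to 143) and a median width of 745 bp (730 to 760), against 114 (109 to 120) and 600 bp (580 to 620) for all other peaks, so that both median intervals were separate. Among the other classes, introns held 1196 peaks, distal intergenic sequence 860, and the 1 to 2 kb and 2 to 3 kb promoter zones 797 and 540. Exons held 155 peaks, 3′ UTRs 107 and 5′ UTRs 36. Distal peaks had the highest median score of the larger classes, 151 (129 to 169), followed by proximal promoters and by introns with 137 (125 to 148), and these 3 intervals overlapped. The 413 peaks in first introns had a median of 145 and the 783 in later introns 131. The outer promoter zones were lower, at 93 and 100, and exon peaks were lowest at 53 (49 to 70).

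The order of the classes depended on transposable elements. When peaks at least 50% covered by an annotated element were left out, the distal median was 114 over 592 peaks and the intron median 122, against 137 over 5756 proximal promoter peaks, and all non-proximal peaks together had a median of 101. Among peaks at or above the median score the ratio of proximal to other medians was 0.897, so that the direction was opposite to that over all peaks, where it was 1.22. The class mix moved with the score accordingly. Proximal promoters made up 48.1% of the lowest score decile and 70.8% of the decile next to the top, but 48.3% of the top decile, which began at 594. Transposable element peaks made up 30.6% of the top decile and 6.49% of the one before it, and distal and intron peaks were 19.0% and 18.6% of the top decile. The median width was 2200 bp in the top decile and 400 bp in the lowest decile, and the median GC content was 42.4% and 49.8% in the same deciles.

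**Figure D2:**
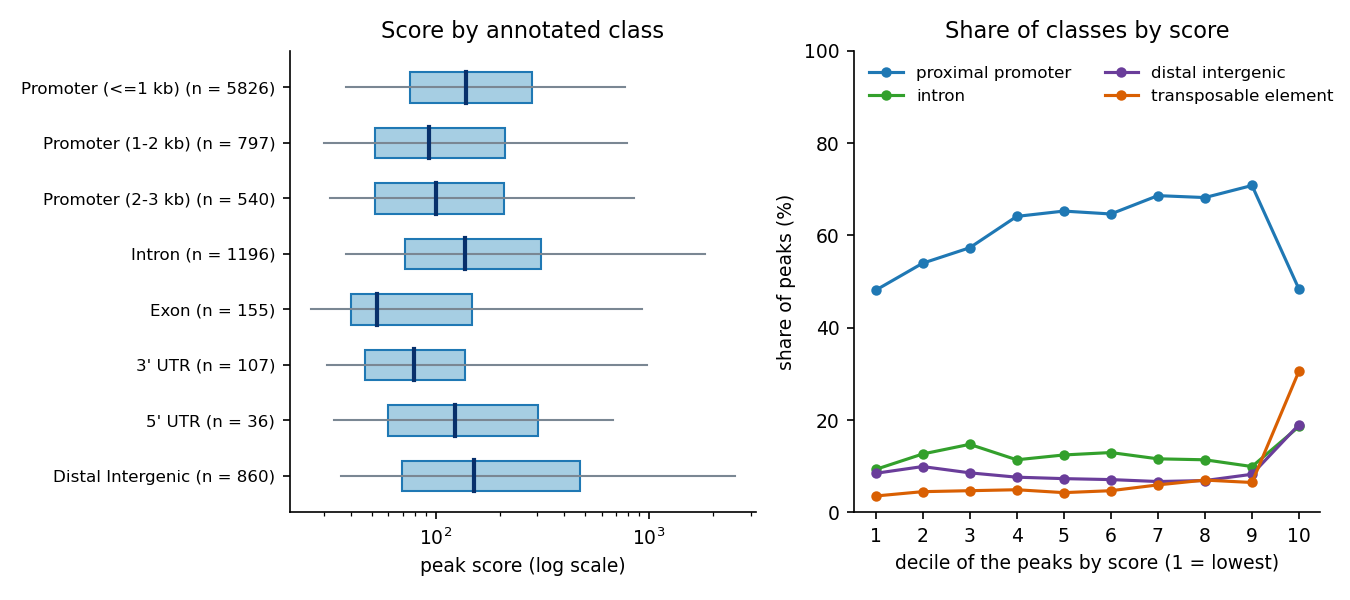
Left, score (log axis) by feature class, with a bar over the quartiles, a line between the 5th and 95th percentiles and a tick at the median; right, the share (%) of proximal promoter, intron, distal and transposable element peaks in each decile of the score. Medians of the large classes lie close together, and the proximal promoter share is 70.8% in the decile next to the top and 48.3% in the top decile.

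The highest peak of the list lay over Act5C, a cytoplasmic actin gene, at X:5898141-5901130, with a score of 791955 and an authors' mean normalized read count of 208530. Act5C was also among the genes with most RNA, with 57776, 51107 and 64758 counts in the 3 libraries. The other 9 highest peaks were of different kinds. The one next in score (784020) was only 530 bp wide, lay at X:22432841-22433370 over a copy of the rover element near CG14621, and had a mean normalized read count of 40904. The others included a peak in the first intron of alpha-Man-I on X (217734), peaks annotated to CG40498 (167862) and CR41379 (87898) on 2R, an exon peak of CG45783 on 3R (111231), and 4 peaks on Y, at Ppr-Y (114852), PRY (93385), Ory (92064) and kl-5 (88826). Ppr-Y, PRY, Ory and kl-5 belong to the male fertility and testis genes of the Y chromosome. Repeats were common under these peaks, since 70.1% of the bases of the Ppr-Y peak and 77.1% of those of the CR41379 peak were soft-masked as repeats in the RefSeq genome, against 17.6% of the Act5C peak. Reads with several matches had been placed at random by the aligner, and their part in these scores was not tested.

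Scores of 1000 or more were reached by 493 peaks (5.16%), and 44.0% of them (217) were transposable element peaks, against 5.70% of the peaks below 1000. Of the 42 peaks at 10000 or more, 14 lay on Y, 11 were transposable element peaks and 5 were proximal promoters. The share of peaks with at least 50% of their bases soft-masked was 28.6% at scores of 10000 or more and 40.6% between 1000 and 10000, against 6.61% below 1000. It was 1.12% among proximal promoter peaks, so that promoters as a class lay largely outside the repeats.

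The highest proximal promoter peaks of each chromosome belonged to genes of varied function. On 2L they were ush (2714), which encodes a Friend of GATA protein that acts in hemocytes, Df31 (2362), a chromatin decondensation factor, and CG9932 (2166). On 2R they were Maf1 (28726), ap (3209), the LIM-homeodomain gene apterous, and CG43188 (2378); 45.5% of the Maf1 peak was covered by a copy of the 1731 retrotransposon, just under the 50% used here to call a transposable element peak. On 3L, Reg-2 (3708), a rhythmically expressed gene, and Pdk1 (2837) were among the highest. On 3R they were ATPsyn-gamma (3452), a subunit of the mitochondrial ATP synthase, kay (2566) and CR46035 (2515). On X the order was Act5C, roX1 (7273), a noncoding RNA of the dosage compensation complex, and Tre1 (4545), a G protein-coupled receptor gene. Chromosome 4 had lower maxima, at zfh2 (1638), ATPsyn-beta (1627) and ci (823), the gene of the Hedgehog pathway transcription factor. Outside proximal promoters, the highest peaks by class were CG33640 in the 5′ UTRs (1787), CR45367 in the 3′ UTRs (5202, over a blood element), Ory at 1 to 2 kb (31147) and Ccy at 2 to 3 kb (15726). Downstream of genes the highest were Ir20a (4907), udd (1169) and CG14506 (527), 1 for each distance class. Annotated elements, led by 1731, covered 51.0% of the Ir20a peak, and elements led by 297 covered 94.4% of the udd peak. With transposable element peaks left out, CG40127 (1391) and inc (594) were the highest in the classes of Ir20a and udd.

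The X chromosome carried fewer and lower peaks per unit of length than the autosomes. It held 1563 peaks, or 66.4 per Mb, with a median score of 111 (105 to 122), against 7765 peaks, 71.2 per Mb and a median of 131 (129 to 137) on the 4 large autosome arms. The difference in score was also seen among proximal promoter peaks, with medians of 116 on X (111 to 127) and 143 on the autosome arms (137 to 148). With transposable element peaks left out, these medians were again 116 and 143. Per gene, however, the order of the density was opposite, with 59.0 peaks per 100 genes on X and 53.1 on the large autosome arms. The single arms had 74.5 peaks per Mb on 2L, 71.9 on 2R, 70.4 on 3L and 69.1 on 3R, with median scores of 130, 137, 125 and 134, so that X was the lowest of the 5 large arms in both measures. S2 cells are known to carry fewer copies of X than of the autosomes. Copy number was not measured here, and its part in the lower X values was not tested.

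The small chromosomes stood apart. Chromosome 4, which is rich in heterochromatin, had 115 peaks at 85.3 per Mb with a median score of 193, and 33.9% of its peaks were transposable element peaks. Its highest peak (5602) was annotated to Caps and lay over a HeT-A element. Y had 117 peaks at 31.9 per Mb with a median score of 413, and 29.9% of them scored 1000 or more. Only 3.42% of the Y peaks were proximal promoters and 65.0% were distal, while 73.5% were at least 50% soft-masked.

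Within the arms, the 2 Mb next to the centromere differed from the remainder. The proximal promoter share there was 20.4% on X, 31.6% on 2L, 9.23% on 2R, 7.27% on 3L and 0% on 3R, against 60.7 to 68.2% in the rest of these arms. Transposable element peaks made up 12.3 to 36.9% of the peaks in these ends, against 6.08 to 7.25% elsewhere. The density of peaks differed between the ends, with 76 per Mb on X and 85.5 on 2L, against 32.5 on 2R, 27.5 on 3L and 50 on 3R. Long stretches without any peak were also found in the arms. The longest was 489.78 kb on 2L (2L:16889251-17379030), which holds the annotation of 42 genes, of which 4 had a mean of 10 RNA counts or more, ApepP having the most with a mean of 739. The longest on X spanned 438.69 kb (X:14310391-14749080) with 17 genes, 6 of them with 10 counts or more.

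**Figure D3:**
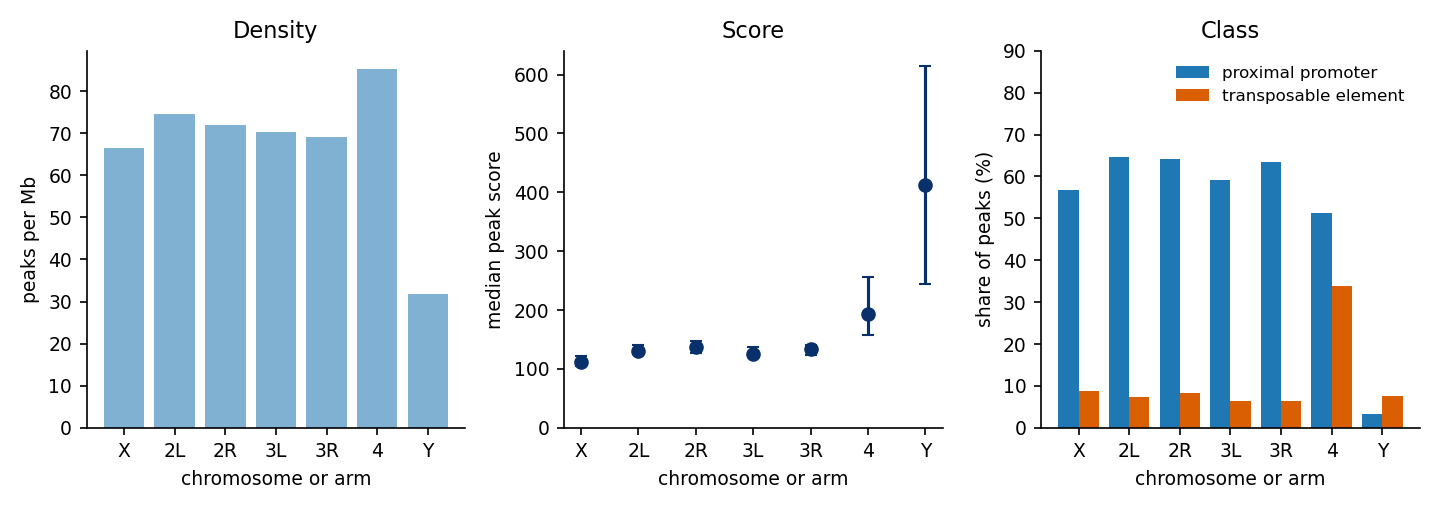
Peaks per Mb, median score with its 95% interval, and the shares (%) of proximal promoter and of transposable element peaks on each chromosome or arm. X has 66.4 peaks per Mb and the lowest median score (111), and Y has the highest median (413) with the lowest proximal promoter share (3.42%).

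Transposable elements, mobile repeats that are silenced in germline and somatic cells to differing degrees, covered 14.6% of the bases under peaks and 5.91% of the genome. A total of 734 peaks (7.68%) were at least 50% covered by annotated elements and 899 (9.40%) touched one. The 734 peaks had a median score of 320 (264 to 405), against 125 (120 to 127) for the remaining peaks. Only 58 of 155 annotated families led such a peak. Long terminal repeat (LTR) retrotransposons were the most frequent. Copia led 107 peaks with a median score of 157, 297 led 89 with 1307, mdg1 led 52 with 519.5 and Tirant led 47 with 277. In the same order these families have 39, 89, 45 and 25 annotated copies, so that copia, mdg1 and Tirant led more peaks than copies. Jockey, a non-LTR element, led 42 peaks with a median of 472.5, and HeT-A, which maintains fly telomeres, led 22 with 360. Higher medians were found for 17.6 (40 peaks, 1862.5), blood (35 peaks, 3149), 3S18 (11 peaks, 2851), diver (13 peaks, 2051) and 1731 (4 peaks, 33074).

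Several of these families had wide peaks. The median width was 7620 bp for blood, 6420 bp for 3S18 and 6160 bp for diver, whose longest annotated copy is 6164 bp. For 1731 it was 4860 bp, against a longest copy of 4670 bp. In contrast copia peaks had a median width of 990 bp. Other families led few peaks for their number of copies, since INE-1 led 7 peaks with 2235 annotated copies, 1360 led 11 with 493, roo led 3 with 144 and 412 led 2 with 44. The reference genome gives the positions of copies in the sequenced strain, and copies of S2 cells that are not in the reference were not analysed here.

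Of all peaks, 246 were 5000 bp wide or wider and held 16.5% of the covered length. Transposable element peaks made up 127 of them (51.6%), and 85 of the other 119 were proximal promoter peaks. The Reg-2 peak (11650 bp, 3L:605661-617310) was wide over a gene with little RNA, with 9, 5 and 10 counts.

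A cluster of wide peaks surrounded kay on 3R. The ATPsyn-gamma peak (18250 bp, 3R:29742091-29760340) was followed after 1310 bp by the kay peak (14980 bp, 3R:29761651-29776630) and after a further 240 bp by the peak credited to ca (32060 bp, 3R:29776871-29808930). The ca peak covered the starts of 9 genes, all with 10 counts or more, among them another start of kay, the kinesin gene ncd and the caspase gene Drice. The ush peak (30740 bp, 2L:476091-506830) also covered cbt, and ush had 2775, 2234 and 3148 counts. The roX1 peak (24090 bp, X:3851451-3875540) also covered yin, an oligopeptide transporter gene, with 18020, 15701 and 20429 counts, whereas roX1 had 434, 407 and 586. The CG43188 peak on 2R (21050 bp) had little RNA beside it, with 52, 32 and 58 counts for CG43188. Wide peaks were thus found both over several transcribed genes and over genes with few counts.

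Relative to gene starts, peak summits were centred just downstream. Of 5756 proximal promoter peaks without a transposable element, 5237 had a summit within 1000 bp of an Ensembl 115 start, at a median of 21 bp downstream, with quartiles of 98 bp upstream and 125 bp downstream. The 50-bp bin right after the start held the largest share, 14.6%, and 44.8% of these summits lay within 100 bp and 74.4% within 250 bp of the start. Over the whole list, 5100 peaks covered no gene start, 3075 covered the start of 1 gene and 1385 (14.5%) of 2 or more, 1192 of these with starts on both strands. Peaks over more starts were wider and higher, with median scores of 205, 148 and 101 and median widths of 1300, 710 and 570 bp for 2 or more, 1 and no gene start. Among proximal promoter peaks, the 4446 that held a start had a median score of 165 and a median width of 850 bp, against 74 and 500 bp for the 1380 that lay near a start without covering it. Both groupings depend on the span of the peak, since a wider peak can cover more starts, and score rose with width. The part of width in these differences was not tested. The peak over most gene starts among histone genes, at His4:CG31611, covered those of 11 genes in 9760 bp with a score of 1151; the histone genes are near-identical repeats, between which random read placement cannot distinguish.

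**Figure D4:**
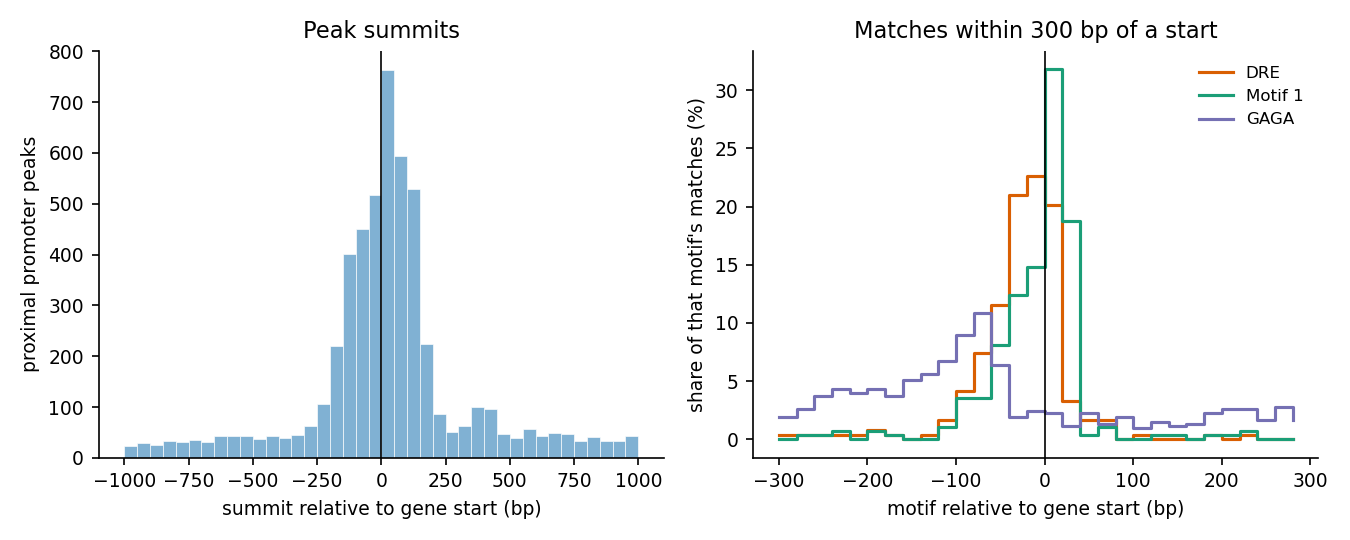
Left, number of proximal promoter summits in 50-bp bins by distance (bp) from the nearest gene start, upstream negative; right, share (%) of the matches of the DRE, Motif 1 and GAGA element in 20-bp bins within 300 bp of the start. Summits are most frequent just after the start (14.6% in the bin of 0 to 50 bp), and the DRE has a median position 20 bp upstream.

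Motif positions differed between motifs. In proximal promoter windows without transposable elements, 243 of 255 DRE and 283 of 297 Motif 1 matches lay within 300 bp of a start. Of 889 GAGA matches only 533 did, and the farther matches were left out of the positions that follow. Within 300 bp of a start, the 243 DRE matches had a median position 20 bp upstream, 72.0% being upstream and 66.7% in the first 100 bp upstream. The 283 Motif 1 matches were centred on the start (median 1 bp downstream), and the 533 GAGA matches lay farther upstream (median 82 bp), 72.6% of them on the upstream side. The motifs also differed in the peaks whose central 300 bp held them. The GAGA element was in 15.1% of proximal promoter windows in the top score quintile and 5.47% in the lowest. The DRE was most frequent in the next to lowest quintile (6.52%) and lowest in the top quintile (2.35%), and Motif 1 was most frequent in the middle quintile (6.86%) and lowest in the top quintile (2.78%). Over 2 or more gene starts, 8.18% of promoter windows held the DRE and 8.76% Motif 1. With 1 start these shares were 3.59% and 5.16%. The GAGA element had the opposite order, with 4.99% over 2 or more starts and 12.5% over 1. In wide peaks the central 300 bp can miss the start. Across genes, median promoter peak width was 450 bp in the lowest and 1800 bp in the highest score quintile. The share of all proximal promoter windows with the DRE or Motif 1 was 8.60%, and 13.3% when centred on the summit. Quintiles and start groups were not compared at the summit, so the part of peak width in these differences was not tested. On X, 5.75% of proximal promoter windows held the DRE and 13.8% the GAGA element, against 3.67% and 10.5% on the large autosome arms.

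The remaining motifs differed less from the genome. The AP-1 motif TGACTCA, the site of Fos and Jun proteins, was in 3.54% of proximal promoter windows (3.09 to 4.04) and 5.76% of other windows (5.06 to 6.55), against 2.39% of genome windows, and reached 7.29% in intron peaks without transposable elements. It was therefore the motif most clearly more frequent outside promoters than in them. The FOXO motif GTAAACA was in 8.55% of proximal promoter, 6.48% of other and 5.68% of genome windows. The STAT motif TTCNNNGAA (7.50%, 7.36% and 8.83% of the same windows), the GATA motif AGATAAG (3.76%, 3.91% and 3.47%), the E-box CACGTG (4.24%, 3.24% and 3.54%), the Zelda motif CAGGTAG (1.89%, 1.61% and 1.64%) and the CTCF core AGGTGGCGC (0.223%, 0.214% and 0.212%) were within 1.5 times their genome shares in both kinds of peak. The cAMP response element TGACGTCA was rare, in 0.772% of proximal promoter, 0.857% of other and 0.411% of genome windows. The GC content was 45.4% in proximal promoter and 44.7% in other windows, against 42.2% in genome windows, and shares were not corrected for it.

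Accessibility was then set beside RNA in the same cells. The 3 vehicle RNA libraries held 8910251, 8125856 and 10256535 counts, and the 10 most abundant genes took 9.21 to 9.86% of them. The libraries carry no replicate number, and pairwise rank correlations across genes were 0.9956 to 0.9957. Of 8785 genes with a mean of 10 counts or more, 4123 had a proximal promoter peak credited to them, or 46.9% (45.9 to 48.0), against 165 of 1502 genes under 10 counts in the count table, or 11.0%. Because a peak is credited to a single gene, the share was also taken over peaks that cover any annotated start of the gene. This was 4841 of 8582 genes with 10 counts or more (56.4%, 55.4 to 57.5) and 132 of 1460 genes under it (9.04%, 7.68 to 10.6). By deciles of RNA counts, the share with a covered start was 7.92% in the lowest and 87.9% in the highest decile.

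Within the genes that had a promoter peak, score and RNA were only loosely related. Across 4288 genes, Spearman's rho of promoter score and mean count was 0.287, with 0.289, 0.285 and 0.287 for the single libraries. Long genes collect more counts and also had higher promoter scores (rho of exon length with counts 0.397 and with score 0.267). With library-scaled counts (CPM) per kb of exon, rho was 0.147 across 4188 genes (0.150, 0.146 and 0.146 for the single libraries). These correlations are across genes, which are not independent replicates. By quintiles of promoter score, the median level was 18.3, 22.4, 24.0, 28.6 and 30.1 CPM per kb from the lowest to the highest quintile, and the quartiles of the lowest (7.60 to 35.7) and highest quintile (12.3 to 64.1) overlapped. Outside promoters the relation was weaker still, at 0.030 for intron peaks (458 genes), 0.072 for distal peaks (151 genes) and −0.028 for the 1 to 2 kb zone (591 genes). By chromosome, the promoter rho was 0.245 on X and 0.276 to 0.315 on the large autosome arms.

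**Figure D5:**
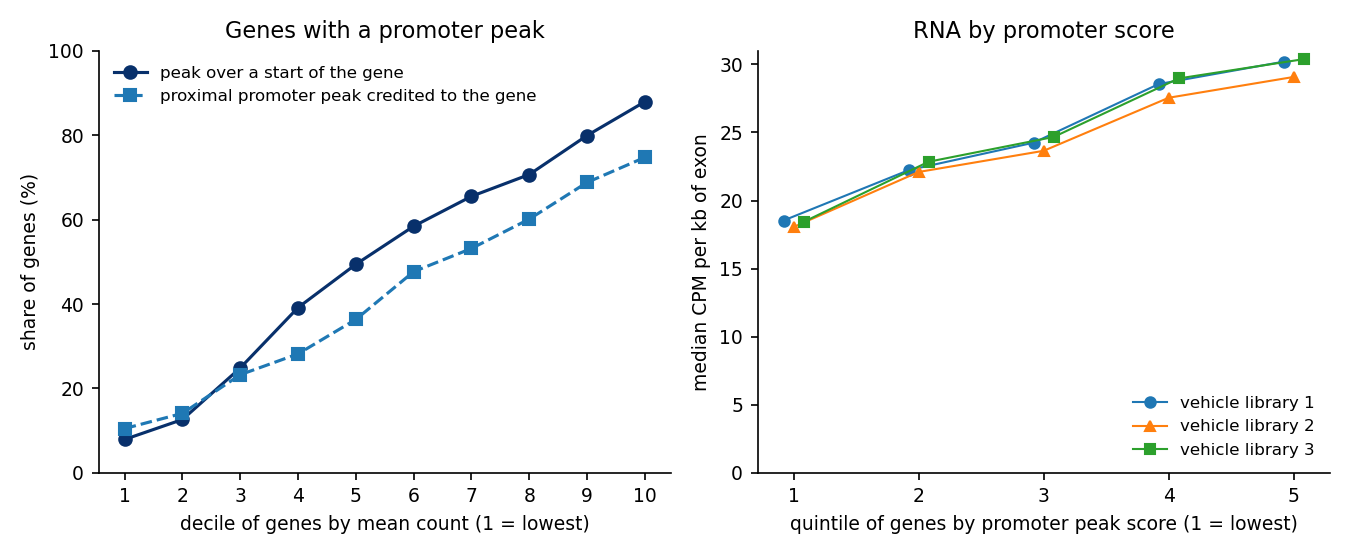
Left, share of genes (%) with a peak over a start and with a credited proximal promoter peak, by decile of mean vehicle RNA count; right, median RNA level (CPM per kb of exon) by quintile of promoter score, with 1 line for each of the 3 libraries. The share with a covered start is 7.92% in the lowest and 87.9% in the highest decile, and the 3 libraries lie close together at each quintile.

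The GAGA element was set beside score and RNA in the same way. The 412 genes whose promoter window held it had a median promoter score of 223 and median levels of 15.3, 14.6 and 15.2 CPM per kb in the 3 libraries, against a score of 145 and 25.1, 24.4 and 25.2 CPM per kb for the 3876 genes without it. Without division by exon length the difference was not seen, since median counts were 577.5, 506.5 and 677.5 with the element, against 562, 500.5 and 659.5 without it. Genes with the element thus had higher promoter scores, and lower RNA levels only per kb of exon.

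The genes with most RNA and a promoter peak were mainly those of the translation and folding machinery. EF2, the translation elongation factor, had 73874, 66938 and 86006 counts, a mean level of 2718 CPM per kb and a promoter score of 597. Ef1alpha48D, the other main elongation factor, scored 286, the ribosomal protein genes RpL5 and RpS5a 730 and 208, and the chaperone genes Hsc70-3 and Hsp83 461 and 218. Arc1, a capsid-like gene, scored 246 and snRNA:U2:34ABa 158, while Act5C and Df31 (2362) were the only ones of these 10 genes with scores above 1000. High RNA without a credited peak had several forms. Mitochondrial genes (mt:lrRNA and mt:CoI) have no nuclear promoter. The start of pAbp, the poly(A)-binding protein gene with 31076, 29490 and 37208 counts, lay under a peak credited to snoRNA:Psi18S-1347b (1589), that of snRNA:7SK under a peak of CG1142 (1116), and that of snoRNA:Psi28S-291 under a peak of RpL3 (53).

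Conversely, some promoters were open with few counts. Reg-2 (3708) had 9, 5 and 10 counts, Rh5 (2010), a rhodopsin gene of the eye, had 8, 5 and 3, and svp (1619), an orphan nuclear receptor gene, had 5, 4 and 5. Hsp70Aa (778) had 8, 1 and 4 counts, where the split of reads between Hsp70 copies is again uncertain. The tracheal transcription factor gene trh (741) was also under a mean of 10. Its peak of score 741 covered no annotated start of trh, and the peak that did scored 74. These examples were chosen after their values were seen. Peaks at genes under 10 counts (422) or outside the count table (1442) made up 19.5% of the list (18.7 to 20.3). Of these 1864 peaks 34.9% were proximal promoters and 20.7% transposable element peaks, against 67.2% and 4.52% of the peaks at genes with 10 counts or more.

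Peaks per gene were few for most genes. Of 5478 genes with a peak, 3754 had 1 and 274 had 5 or more. The genes with most peaks were CR41571 (71), 2SrRNA:CR45864 (42), snoRNA:Psi28S-2996 (29), CR40469 (24) and Caps (21). Each peak is credited to a single gene, which can lie far from it. The highest peak credited to CR41571 lay at 3R:403641-409910, and the gene at 3R:722370-722621. Among these genes only Caps had a proximal promoter peak, and the highest peak of each was distal intergenic. The highest peak credited to Caps lay over a HeT-A element, and the rRNA gene array on X (X:23200802-23291729) held 23 peaks.

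The labelled S2 identity was checked against markers of fly blood cells and other tissues. Over all 17559 genes of the deposited gene table, 4702 (26.8%) had a credited proximal promoter peak and 32.3% had a covered start, which is the background for the lists that follow. Of 12 plasmatocyte markers, 8 had a proximal promoter peak and 10 had a mean of 10 RNA counts or more. They were ush (2714), srp (963), the hemocyte GATA factor, with 1710, 1508 and 1970 counts, crq (740), a scavenger receptor, with 2344, 2140 and 2771 counts, and Ppn (587), an extracellular matrix protein. The collagen IV genes Cg25C and vkg scored 416 and 312, the peroxidasin gene Pxn 137 and the engulfment receptor gene drpr 88. Hml (270, 230 and 301 counts) and eater (68, 66 and 84 counts) had RNA but no peak, and NimC1 and Sr-CI were not in the count table. Of 4 crystal cell markers PPO2 (57) and lz (52) had low peaks, and 0 of 3 had a covered start. None of 3 lamellocyte markers had a proximal promoter peak, ItgalphaPS4 had a peak of score 300 at 1 to 2 kb, and 2 of the 3 had a mean of 10 counts or more. Of other tissues, 1 of 9 neuronal markers (elav, 331, with 536, 457 and 556 counts) and none of 9 muscle, 6 germline and 6 fat body markers had a proximal promoter peak. A mean of 10 counts or more was reached by 4 of the neuronal, 3 of the muscle and 4 of the germline markers, among them aub with 1171, 1071 and 1412 counts, and by no fat body marker.

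Hemocyte signalling and stress genes had promoter peaks more often than the 26.8% of all genes. Most members of these lists had 10 counts or more, and among all genes at that level the share was 46.9%. Glycolysis (75%) and cell cycle genes (69.6%) were also above both shares, whereas mitochondrial ribosomal protein genes (26.0%) were below both. By covered start, however, the mitochondrial ribosomal protein share was 46.5%. This lay between the 32.3% of all genes and the 56.4% of genes with 10 counts or more. The lists were chosen with earlier results of these data known, and their counts are descriptions. Of 25 genes of innate immunity, 16 had a proximal promoter peak with a median score of 360, with dl (1109) and Dif (623), NF-kappaB factors of the Toll pathway, spz (904), its ligand, and imd (632), the adaptor of the Imd pathway. No peak was credited to the antimicrobial peptide genes AttA, AttB, AttC, AttD, Dpt, DptB and Def, although DptB had 2197, 2178 and 2548 counts. All 8 genes of the AP-1 and stress factor list had a peak (median 358.5), led by kay (2566), crc, the fly ATF4, (1213, with 7966, 7295 and 9209 counts), puc (397), the JNK phosphatase, and CrebB (394). Of 13 heat shock genes 11 had a promoter peak (median 333), with Hsp70Ba (2214), Hsp70Aa (778), Hsp68 (469) and Hsc70-3 (461). The first 2 of these had few counts, though the split of reads between Hsp70 copies is uncertain. Hsc70-3 was among the 10 genes with most RNA and a promoter peak.

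Hormone and growth pathways were similar. Of 11 ecdysone genes 10 had a promoter peak (median 453.5), with the early response gene Eip74EF (930), the nuclear receptor genes Hr39 (900) and ftz-f1 (839) and the receptor EcR itself (685). Of 16 genes of the insulin and TOR pathway 13 had one and 16 had 10 counts or more (median score 271). Pdk1 (2837) and Akt1 (1243), the kinases downstream of PI3-kinase, led, followed by Pi3K21B (862), its regulatory subunit, and InR (570), the receptor. Tsc1, gig and raptor had no credited peak. Of 23 cell cycle genes 16 had a promoter peak (median 183), among them aurA (884), stg (649), the Cdc25 phosphatase, E2f1 (570) and Dp (357), and none was credited to Mcm2, Mcm3, Mcm5, Mcm6 or Mcm7. Glycolysis had a peak at 9 of 12 genes (median 183).

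Chromatin genes were also examined. Of 14 architecture genes 8 had a proximal promoter peak (median 147.5), with Trl (628), which encodes the GAGA factor, Clamp (546), mod(mdg4) (460) and BEAF-32 (207). Of 7 dosage compensation genes 6 had one (median 231), led by roX1 (7273). The start of the other roX gene, roX2, lay under a peak credited to e(y)2 (461), and roX2 had 6959, 6500 and 8232 counts. Developmental patterning genes often had a promoter peak with little or no counted RNA. Of 20 homeotic and patterning genes 13 had a credited promoter peak and 8 of 18 a covered start, but only 3 had 10 counts or more. The highest was ap (3209), with 12101, 10665 and 14347 counts, while 11 of the 13 genes with a promoter peak were under the minimum or outside the count table, which held only 6 of the 20 genes. Among these 11, dac (291) had 8, 5 and 5 counts and Abd-B (212) had 6, 5 and 2, and wg (606), the Wnt ligand, en (226), Scr (212) and Dll (201) were outside the table.

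Housekeeping lists had many transcribed genes, with median scores near or below the 151 of all genes with a proximal promoter peak. Of 92 ribosomal protein genes 50 had a credited promoter peak and 61 of 87 a covered start, with a median score of 158.5. RpL5 (730), RpL28 (675), RpS3 (493) and RpL3 (469) were highest. No peak was credited to RpL12 or RpL27A, among others, but the RpL12 start lay under a peak credited to RpL39 (372). Of 73 mitochondrial ribosomal protein genes 19 had a credited promoter peak (median 93) and 33 of 71 a covered start, although 72 had 10 counts or more. Of 31 proteasome genes 18 had a credited promoter peak (median 141) and 21 a covered start, with 30 at 10 counts or more. Among small RNA genes, a promoter peak was credited to 13 of 32 snRNA genes (median 225), 73 of 297 tRNA genes (143), 30 of 273 snoRNA genes (76.5) and 18 of 235 microRNA genes (102.5). The highest microRNA promoter was mir-277 (1384). Of 111 histone genes only 4 had a credited peak but 104 had a covered start, since single peaks of the histone array covered the starts of several genes. Of the histone genes 1 was in the count table.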

How the data were processed

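Per the study's methods, the authors aligned ATAC-seq reads to dm6 with Novoalign, handled the alignments in SAMtools and pooled the 3 vehicle samples for peak calling by the Multi-Replicate Macs ChIPSeq pipeline. The deposited peak list gives a score per peak and, as another value, the summit offset in bp. The authors merged the vehicle and insulin lists, annotated the merged peaks with ChIPseeker, giving the distance to the transcription start site as another value, and counted reads per library; the deposited mean signal is the DESeq2-normalized read count averaged over 6 libraries. For RNA-seq the authors used STAR (BDGP6) and strand-aware featureCounts, and the deposited raw counts are not normalized. The deposited gene table gives gene start and end as other values. Their tool versions are not stated in the sources used here. The authors' comparison columns (fold changes, p-values and pathways) and the 3 raw count columns of the other treatment were not used.

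Peaks were joined to merged peaks by overlap, to Ensembl 115 starts and transposable elements, and to soft-masking of the RefSeq Release 6 genome, whose coordinates match dm6. A gene with a mean of 10 counts or more was called transcribed, and a transposable element peak was at least 50% covered. Correlations are Spearman's, levels are CPM per kb of exon, and motifs (13) were searched on both strands in 300-bp windows. Genes were named by rule: the 10 highest peaks, the highest of each class and chromosome, the 5 widest, the 5 genes with most peaks, the 10 with most RNA and a promoter peak and the 5 with most RNA and none, up to 4 members of each of 25 lists, and markers with a peak. Some items that the rule names are not reported here. A further part of the rule, promoter peaks of genes with a mean of 0 to 1 counts, found none; for it, and for the pnr and Hers sequences, examples were chosen after their values were seen. Sequences are the highest-scoring non-element proximal promoter peak with each motif, off 2R, with up to 60 bases on each side clipped at annotated exons. The peaks, lists and tests were chosen with earlier results of these data known. Scripts used Python 3.11.15, NumPy 2.4.6, pandas 2.3.3, SciPy 1.17.1 and Matplotlib 3.10.9 and were tested on simulated data. RNA depth was 8125856 to 10256535 counts per library.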

Additional observations from a re-analysis of the deposited data

How the results depend on the processing

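No paired analysis was possible because the peaks come from 1 pooled list and the RNA columns carry no replicate number. Of 54 planned or added alternatives to the main values, 26 moved them by less than their interval or spread. The signal column of the peak list held only 0 and gave no alternative level. The settings without transposable element peaks, with a start inside the peak, per kb of exon and at the summit were chosen after seeing the data. The share of proximal promoter peaks (60.9%) was 64.2% at or above the median score, 65.2% without element peaks and 55.3% by distance of the peak centre. The score ratio of proximal to other peaks (1.22) was 0.897 at or above the median, where its direction was opposite, 1.36 without element peaks and 1.63 with a start inside, and the width ratio (1.24) was 1.32 without element peaks. The X to autosome density ratio (0.932) was 0.813 at or above the median and 0.842 for proximal peaks, and the score ratio (0.847) was 0.946 at or above the median. The rank correlation of promoter score and RNA (0.287) was 0.286 to 0.288 with each library left out, 0.294 at 10 counts, 0.240 for every peak, 0.284 for width, 0.281 with 50% overlap, 0.147 per kb of exon and 0.296 without element peaks. The share of transcribed genes with a promoter peak (46.9%) was 46.6 to 47.0% with each library left out, 41.7% at 1 count, 55.0% at 100 counts, 48.1% at 10 counts in every library, 26.6% at or above the median score and 56.4% by covered start. Peaks at genes with few counts (19.5%) were 19.0 to 19.7% with each library left out, 15.1% at 1 count, 30.5% at 100, 20.4% at 10 in every library and 16.7% without element peaks. The share with the DRE or Motif 1 (8.60%) was 6.40% in 200 bp, 7.25% at or above the median score and 13.3% at the summit. Peak depth is pooled, so that differences within the intervals cannot be read.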

Other observations

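Genes outside the count table were also covered by peaks. Of 7272 such genes in the deposited gene table, 787 had a peak and 414 a proximal promoter peak. The peak classes with fewest members were those downstream of genes, with 14, 8 and 21 peaks.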
